A study of Mus musculus with 7 samples.

Results

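Transmitter and peptide G-protein-coupled receptors are the membrane proteins through which cells sense acetylcholine, serotonin, glutamate, GABA, neuropeptides and extracellular nucleotides. The genes described here were taken by symbol, with a symbol pattern for each of 14 receptor families, and 61 genes of 13 families were measured among 19938 genes in all. A further 8 symbols of those patterns were not analysed here. Choosing by symbol used no measured value, but the families were picked with earlier results of these data known.

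Levels were measured on 7 microarrays of cells sorted from whole bowel of mouse embryos at embryonic day 17.5. All embryos carried Wnt1-Cre and R26R-EYFP: Cre recombinase driven by Wnt1 sequences, at work in neural crest, and a reporter that turns on EYFP for good in cells that had Cre and in their descendants. A cell is thus sorted by its lineage and not by its present state. The 4 YFP-positive samples are the enteric neural crest-derived cells (ENCDC), which form the neurons and glia of the bowel wall, and the 3 YFP-negative samples hold all other sorted bowel cells (non-ENCDC). Whether the samples come from different embryos or pools is not given in the labels, and a p-value here reflects the spread between samples, which may be technical. The comparison asked which genes are enriched in ENCDC.

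These receptors cross the cell membrane and act through heterotrimeric G proteins on its inner side. Receptors that couple to Gs raise cyclic AMP through adenylyl cyclase, those that couple to Gi lower it, and those that couple to Gq release calcium through phospholipase C. In the bowel they are found on enteric neurons and glia, smooth muscle, interstitial cells, epithelium and immune cells, so a receptor gene need not mark the nervous system.

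The deposited values are log2 levels per probe set. Neural markers followed the labels: all 6 measured neuron markers and all 4 measured glia and progenitor markers were higher in YFP-positive cells. Mean neuron marker levels were 9.60, 9.56, 9.37 and 9.09 on YFP-positive arrays 1 to 4, against 5.39, 5.04 and 5.45 on YFP-negative arrays 1 to 3. Markers of other cell types had higher levels on YFP-positive arrays 3 and 4 than on arrays 1 and 2. Mean smooth muscle marker levels were 8.20, 9.04, 9.66 and 10.11 on YFP-positive arrays 1 to 4, and the myeloid mean was 5.52, 5.83, 6.45 and 6.51. Epithelial markers did not separate the groups: 0 of 6 passed, and their mean was 7.43, 7.86, 8.52 and 8.84 on the YFP-positive arrays, against 8.25, 8.22 and 8.31 on the YFP-negative arrays. YFP-positive arrays 3 and 4 thus lay above every YFP-negative array for this list, and its part in the receptor results was not tested. Precision is limited by the number of arrays, and in such mixed samples fewer cells of a type and less RNA per cell cannot be told apart.

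Receptor genes went both ways. Of the 61, 6 were higher in YFP-positive cells (Htr2b, Tacr3, Sstr2, Gabbr1, Grm7 and Htr4) and 7 were lower (P2ry10, P2ry6, P2ry13, P2ry14, P2ry12, Chrm3 and Vipr2), at a limma p adjusted over all genes of under 0.05. The 6 higher genes are 9.84% of the receptor genes, against 8.39% of all genes tested, and the 7 lower genes are 11.5%, against 9.11% of all genes. These shares lie near the background, so the number of calls is not a feature of the receptors. The median log2 fold change, YFP-positive minus YFP-negative, was 0.01 over the receptor genes and 0.01 over all genes. An absolute log2 fold change under 0.25 was found for 39 of the 61 receptor genes (63.9%), against 66.7% of all genes. Of the 13 called genes, 7 differed by at least 2-fold, 2 of them higher and 5 lower.

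**Figure D1:**
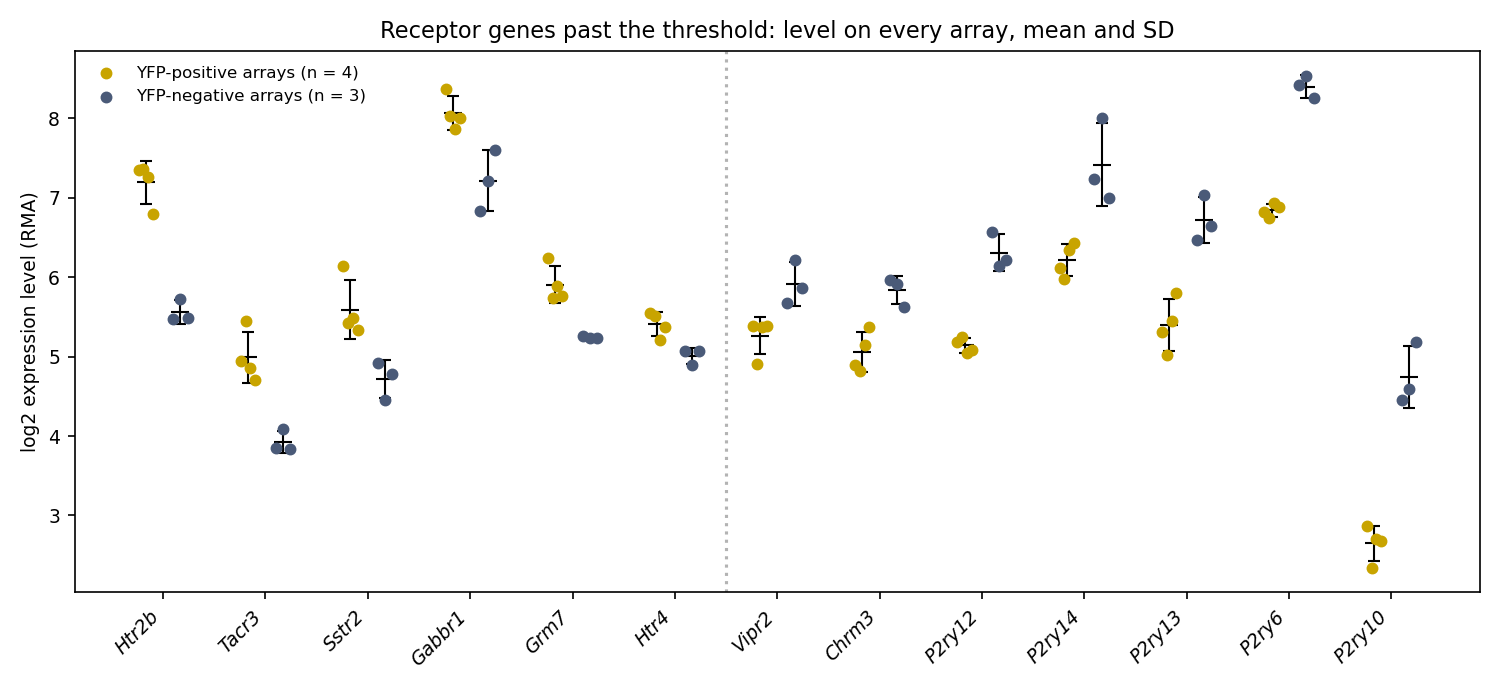
The 13 receptor genes past the threshold, ordered by fold change, with the log2 level on each YFP-positive array (yellow, left of each pair) and each YFP-negative array (blue, right of each pair) and the mean with its SD. In every one of these genes the points of the groups do not overlap.

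For the called genes the groups did not overlap. Over all 61 receptor genes, every YFP-positive array lay above every YFP-negative array for 11 (18.0%), against 13.5% of all genes, and below for 8 (13.1%), against 13.5% of all genes. No detection calls come with the data, and low levels can be mostly background, which makes fold changes too small. Of the receptor genes, 27 (44.3%) had the same value to 6 decimals on 3 or more arrays, against 32.7% of all genes. None of the 13 called genes shared a value between any arrays.

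**Figure D2:**
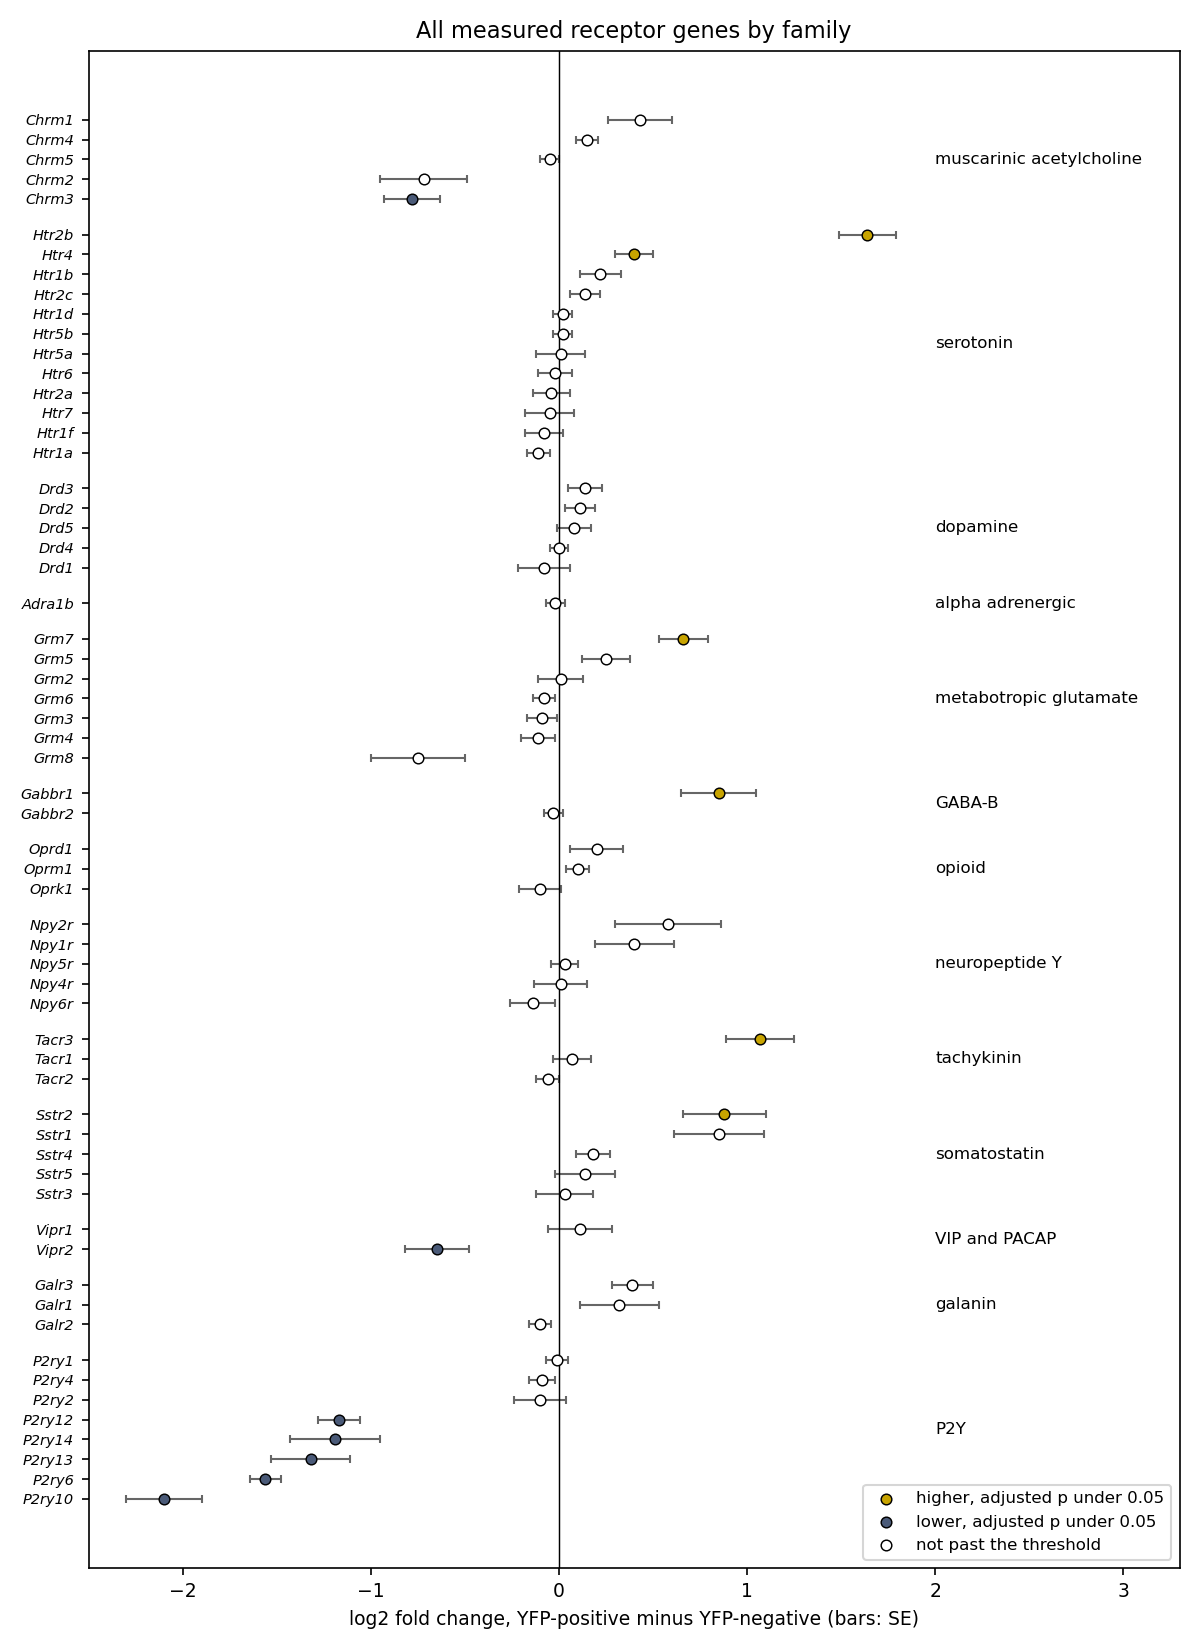
The log2 fold change of each of the 61 receptor genes, YFP-positive minus YFP-negative, with its SE, grouped by family. Filled points passed the threshold (yellow higher, blue lower), and the 5 lower P2Y genes form the group farthest to the left.

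Muscarinic receptors, which answer acetylcholine, were lower or did not pass. Chrm3, the Gq-coupled receptor that drives contraction of visceral smooth muscle, had log2 levels of 4.89, 4.82, 5.14 and 5.37 on YFP-positive arrays 1 to 4, against 5.96, 5.92 and 5.63 on the YFP-negative arrays. It was 1.72-fold lower in YFP-positive cells (-0.78 ± 0.15 on the log2 scale, SE, limma adjusted p = 0.0135), and every YFP-positive array lay below every YFP-negative array. Leaving out array 1 of the YFP-negative cells ended the call (adjusted p = 0.057), as did leaving out array 2 (adjusted p = 0.062).

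Chrm2, the Gi-coupled receptor of smooth muscle and autonomic nerve endings, was chosen after its values were seen. It had levels of 6.72, 6.73, 7.11 and 7.31 in YFP-positive cells, against 8.01, 7.86 and 7.20 in YFP-negative cells. Its groups overlapped and it did not pass (-0.72 ± 0.23, limma adjusted p = 0.0799), and it passed as lower without YFP-negative array 3 (adjusted p = 0.0226). The other members, Chrm1 (0.43 ± 0.17), Chrm4 (0.15 ± 0.06) and Chrm5 (-0.05 ± 0.05), did not pass. Mean smooth muscle marker levels lay between 8.20 and 10.11 on YFP-positive arrays and between 10.33 and 10.87 on YFP-negative arrays, with 2 of 6 markers called lower, and their part in these differences was not tested.

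Serotonin receptors held the largest increase of all 61 genes. Htr2b, a Gq-coupled receptor known in the developing gut and heart, had levels of 7.35, 7.36, 7.26 and 6.80 in YFP-positive cells, against 5.47, 5.73 and 5.48 in YFP-negative cells. Even the lowest YFP-positive array, array 4, stood more than 1 log2 unit above every YFP-negative array. Htr2b was 3.11-fold higher in YFP-positive cells (1.64 ± 0.15 on the log2 scale, SE, limma adjusted p = 0.000526), and the call held under all 16 alternatives, with an adjusted p of at most 0.00466. Its mean was 7.19 ± 0.27 (SD, n = 4), against 5.56 ± 0.15 (SD, n = 3).

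Htr4, a Gs-coupled receptor that in the adult bowel promotes release of acetylcholine from enteric neurons, had a small difference. Its levels were 5.55, 5.51, 5.21 and 5.37 in YFP-positive cells and 5.07, 4.89 and 5.07 in YFP-negative cells. The groups lay close together without overlapping, and Htr4 was 1.32-fold higher (0.40 ± 0.10, limma adjusted p = 0.0321). The call was lost when any array other than YFP-positive array 3 was left out (adjusted p of 0.0602 to 0.115).

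The other 10 serotonin receptor genes did not pass. Htr1a, Htr1b, Htr1d, Htr1f, Htr2a, Htr2c, Htr5a, Htr5b, Htr6 and Htr7 had log2 fold changes from -0.11 (Htr1a) to 0.22 (Htr1b). Of these 10, only Htr1f and Htr2a had no value shared by 3 or more arrays. None of the 5 dopamine receptor genes passed either. Drd1, Drd2, Drd3, Drd4 and Drd5 had log2 fold changes from -0.08 (Drd1) to 0.14 (Drd3). Drd4, the member with the highest mean, had levels of 5.14, 5.14, 5.17 and 5.14 in YFP-positive and 5.14, 5.12 and 5.18 in YFP-negative cells, which overlapped throughout. Adra1b, a Gq-coupled receptor for noradrenaline and the single adrenergic gene analysed here, had levels of 3.62, 3.49, 3.58 and 3.58 in YFP-positive and 3.58, 3.58 and 3.61 in YFP-negative cells (-0.02 ± 0.05).

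Metabotropic glutamate receptors had 1 of 7 members called. Grm7, a Gi-coupled receptor placed at transmitter release sites of neurons, had levels of 6.24, 5.74, 5.89 and 5.76 in YFP-positive cells, against 5.26, 5.24 and 5.24 in YFP-negative cells. The YFP-negative arrays were nearly equal (SD 0.02) and lay below every YFP-positive array. Grm7 was 1.58-fold higher (0.66 ± 0.13, limma adjusted p = 0.0112), a call kept without any single array but not with YFP-positive arrays 3 and 4 both left out (0.74, adjusted p = 0.0538). Its close relative Grm8, chosen after its values were seen, went the other way without passing (-0.75 ± 0.25, limma adjusted p = 0.084), with levels of 4.32 to 4.76 in YFP-positive and 5.02, 5.87 and 4.86 in YFP-negative cells. Without YFP-negative array 2, its highest array, the difference was -0.44 (adjusted p = 0.103). Grm2, Grm3, Grm4, Grm5 and Grm6 had log2 fold changes from -0.11 (Grm4) to 0.25 (Grm5) and did not pass.

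The GABA-B receptor is a dimer in which the Gabbr1 protein binds GABA and the Gabbr2 protein carries Gabbr1 to the cell surface and couples to Gi. Gabbr1 had levels of 8.37, 8.03, 7.87 and 8.0 in YFP-positive cells, against 6.83, 7.21 and 7.60 in YFP-negative cells. It was 1.81-fold higher (0.85 ± 0.20, limma adjusted p = 0.0242), and the groups did not overlap, although YFP-negative array 3 came close. Leaving out YFP-positive array 1, 2 or 4 ended the call, as did leaving out array 1 or 2 of the YFP-negative cells (adjusted p of 0.0557 to 0.0865) or both YFP-positive arrays 3 and 4 (0.99, adjusted p = 0.0872).

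Gabbr2 did not pass, and is shown after its values were seen. Its levels were 4.58, 4.52, 4.63 and 4.58 in YFP-positive and 4.58, 4.58 and 4.66 in YFP-negative cells (-0.03 ± 0.05, limma adjusted p = 0.798), the groups overlapped, and 3 arrays shared 1 value. Of the cytosolic KCTD proteins that bind the GABA-B receptor, Kctd12 (-0.62 ± 0.08, limma adjusted p = 0.00182) and Kctd12b (-0.57 ± 0.14, limma adjusted p = 0.035) were lower in YFP-positive cells. Kctd8 (0.03 ± 0.05) and Kctd16 (0.06 ± 0.13) did not pass. Homer1, Homer2 and Homer3, scaffolds of Gq-coupled glutamate receptors that complete this list of 7 accessory genes, did not pass either. The call of Kctd12b did not hold after removal of array 3 or 4 of the YFP-positive cells, or of both together. It was also lost without array 1 or 2 of the YFP-negative cells and when the arrays were normalized again. Over these settings the adjusted p reached up to 0.144.

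Tachykinin receptors differed by member. Tacr3, the Gq-coupled receptor for neurokinin B, had levels of 4.95, 5.45, 4.86 and 4.71 in YFP-positive cells, against 3.85, 4.09 and 3.84 in YFP-negative cells. The groups were clearly apart, with array 2 the highest of the YFP-positive arrays. Tacr3 was 2.09-fold higher (1.07 ± 0.18, limma adjusted p = 0.00637), and the call was lost only in the test against a 1.5-fold difference (adjusted p = 0.211) among the 15 alternatives that tested it. Tacr1 (0.07 ± 0.10), the substance P receptor of enteric neurons and interstitial cells, and Tacr2 (-0.06 ± 0.06), a receptor of smooth muscle, did not pass. Among ligand genes, Tac1, which encodes substance P, was higher (1.59 ± 0.42, limma adjusted p = 0.041), while Tac2, which encodes neurokinin B, did not pass (-0.03 ± 0.13). The call of Tac1 was lost without any one YFP-positive array or without YFP-negative array 1.

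Somatostatin receptors, all Gi-coupled, had log2 fold changes above 0 in each of 5 members, and 1 passed. Sstr2 had levels of 6.14, 5.42, 5.48 and 5.33 in YFP-positive cells, against 4.92, 4.45 and 4.78 in YFP-negative cells. YFP-positive array 1 was the highest, and all 4 stood above the YFP-negative arrays. Sstr2 was 1.84-fold higher (0.88 ± 0.22, limma adjusted p = 0.032), and the call ended without YFP-positive array 2, YFP-positive array 3 or any of the YFP-negative arrays (adjusted p of 0.0599 to 0.121).

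Sstr1 differed by a similar amount with more spread, and was chosen after its values were seen. Its levels were 5.47, 5.84, 4.94 and 4.82 in YFP-positive cells, against 4.39, 4.45 and 4.42 in YFP-negative cells, with no overlap. It narrowly missed the threshold (0.85 ± 0.24, limma adjusted p = 0.0554) and passed without YFP-positive array 4 (adjusted p = 0.0359) or without arrays 3 and 4 together (1.23, adjusted p = 0.00777). Sstr3 (0.03 ± 0.15), Sstr4 (0.18 ± 0.09) and Sstr5 (0.14 ± 0.16) did not pass. Sst, the somatostatin gene, which enteroendocrine cells of the epithelium also express, had -1.91 ± 0.65 without passing (limma adjusted p = 0.0916).

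The promoters of Htr2b, Tacr3 and Sstr2 are shown because these 3 genes had the largest log2 fold changes in favour of YFP-positive cells. The windows are 300 bases long, 250 before and 50 after the annotated start, from RefSeq (GRCm38.p6), read 5′ to 3′. Capitals mark matches on either strand to 6 motifs. These are the core promoter element TATAAA, the upstream promoter element CCAAT, the motif of Sp-family factors GGGCGG (called a GC box), the cyclic AMP response element TGACGTCA, the E-box spelled CAGCTG, and GAGGAA, a core of sites for ETS-family factors.
Htr2b, chr1:86111931-86112230, minus strand: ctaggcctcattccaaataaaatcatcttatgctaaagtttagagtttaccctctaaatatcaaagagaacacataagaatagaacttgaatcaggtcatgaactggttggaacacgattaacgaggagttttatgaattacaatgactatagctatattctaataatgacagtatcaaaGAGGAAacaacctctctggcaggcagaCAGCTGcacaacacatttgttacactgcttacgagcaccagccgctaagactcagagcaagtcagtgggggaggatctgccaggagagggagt
Tacr3, chr3:134828757-134829056, plus strand: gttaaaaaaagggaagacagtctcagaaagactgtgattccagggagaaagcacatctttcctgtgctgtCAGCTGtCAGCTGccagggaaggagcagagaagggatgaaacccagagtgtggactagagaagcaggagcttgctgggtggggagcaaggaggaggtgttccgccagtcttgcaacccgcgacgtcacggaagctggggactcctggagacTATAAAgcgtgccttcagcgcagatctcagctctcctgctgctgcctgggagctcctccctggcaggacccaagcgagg
Sstr2, chr11:113619077-113619376, plus strand: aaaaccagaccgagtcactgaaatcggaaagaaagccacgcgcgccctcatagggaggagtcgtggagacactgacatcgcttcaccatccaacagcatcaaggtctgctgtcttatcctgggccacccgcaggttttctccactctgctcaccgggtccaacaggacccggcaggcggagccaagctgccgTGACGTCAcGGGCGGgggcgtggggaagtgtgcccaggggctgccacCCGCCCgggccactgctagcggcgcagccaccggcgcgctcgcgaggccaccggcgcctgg
The windows differ in kind. Sstr2 held 27 CpG pairs, against a median of 7 over all 32851 windows, with GC boxes and the single TGACGTCA match among the 49 receptor genes that had a window, 58 bases before the start. That motif was found in 1.79% of all windows. Tacr3 held a TATAAA 29 bases before the start, a motif found in 13.6% of all windows, and 2 CAGCTG matches. Htr2b had 4 CpG pairs, 1 CAGCTG match and no TATAAA. Other spellings of the E-box were not searched. A match is a description of these letters only.

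Vip and a gene for one of its receptors differed in opposite directions. Vip was higher in YFP-positive cells by 3.92 ± 0.40 on the log2 scale (limma adjusted p = 0.000796), while Vipr2, a Gs-coupled receptor of smooth muscle, was lower. Vipr2 had levels of 5.38, 4.91, 5.37 and 5.38 in YFP-positive cells and 5.67, 6.21 and 5.86 in YFP-negative cells. The groups lay close together, and the 1.57-fold difference (-0.65 ± 0.17, limma adjusted p = 0.0386) lost its call without any single array other than YFP-negative array 1 (adjusted p of 0.0657 to 0.121). Vipr1, the Gs-coupled VIP receptor of epithelium and immune cells, had a log2 fold change of 0.11 ± 0.17 and overlapped (limma adjusted p = 0.716).

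Galanin receptors did not pass, although Gal was higher by 4.37 ± 0.31 (limma adjusted p = 0.000169). Galr3, the member with the highest mean, had levels of 5.99, 6.03, 6.41 and 6.18 in YFP-positive cells, against 5.73, 5.72 and 5.85 in YFP-negative cells. The groups did not overlap, the log2 fold change was 0.39 ± 0.11 (limma adjusted p = 0.0526), and Galr3 passed after the arrays were centred on their medians (0.42, adjusted p = 0.0304). Without YFP-positive arrays 3 and 4 the difference was 0.25 (adjusted p = 0.101). Galr2, which couples to Gq, had -0.10 ± 0.06. Galr1 had 0.32 ± 0.21.

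Neuropeptide Y receptors, all Gi-coupled, did not pass in any of 5 cases. Npy2r, the member with the highest mean and a receptor of nerve endings, had levels of 5.68, 4.67, 4.59 and 4.55 in YFP-positive cells, against 4.37, 4.16 and 4.34 in YFP-negative cells. Array 1 alone stood far above the rest, and the log2 fold change was 0.58 ± 0.28 (limma adjusted p = 0.217). Without that array Npy2r passed as higher (adjusted p = 0.0489). Npy1r (0.40 ± 0.21), Npy4r (0.01 ± 0.14), Npy5r (0.03 ± 0.07) and Npy6r (-0.14 ± 0.12) did not pass.

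YFP-positive array 1 was also the highest array for other genes, here chosen after their values were seen. Npy1r had 5.09 on array 1, against 4.67, 4.31 and 4.35 on arrays 2 to 4. Galr1 had 4.77, against 4.11, 3.90 and 3.90. The ligand gene Npy had 8.18 on array 1 and 6.59, 6.04 and 5.96 on arrays 2 to 4. Among enzymes of noradrenaline synthesis, Th had 6.69, against 4.86, 5.02 and 4.64, and Dbh had 7.10, against 5.71, 5.32 and 5.55. Ddc, another of these enzymes, did not stand out on array 1, with 6.08, against 5.81, 5.89 and 6.08. Slc18a2, the vesicular monoamine transporter gene, was highest on array 2, with 8.26, against 8.11 on array 1. The share of all genes highest on array 1 was not computed, and the cause of these levels was not tested.

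Opioid receptors, all Gi-coupled, did not pass. Oprd1, the member with the highest mean, had levels of 5.94, 5.55, 5.98 and 5.74 in YFP-positive and 5.35, 5.72 and 5.72 in YFP-negative cells, which overlapped (0.20 ± 0.14). Oprm1 had a log2 fold change of 0.10 ± 0.06 and Oprk1 one of -0.10 ± 0.11. The opioid precursor genes Penk (0.28 ± 0.24) and Pdyn (0.41 ± 0.12) did not pass either.

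**Figure D3:**
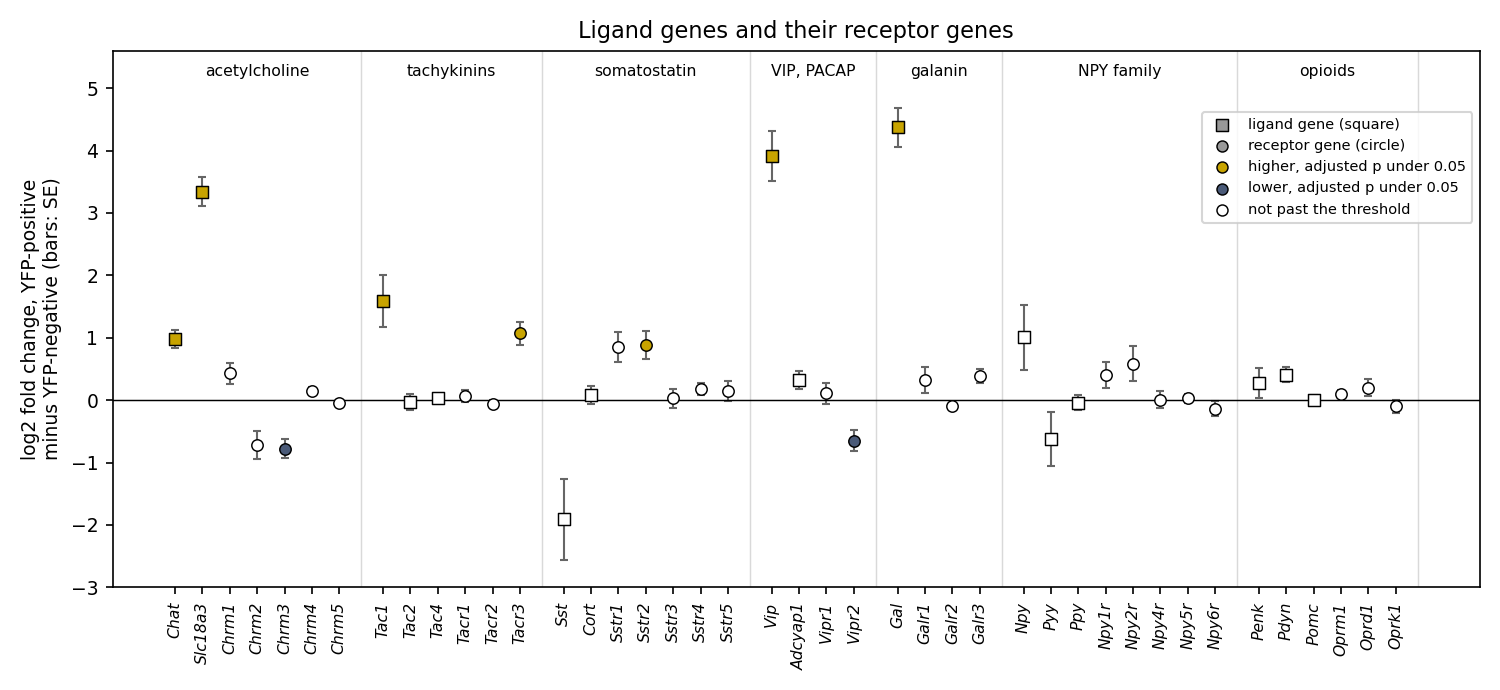
Log2 fold change, YFP-positive minus YFP-negative, with its SE, for ligand or transmitter genes (squares) and their receptor genes (circles). Gal and Vip stand near 4, while the receptor genes plotted beside them (Galr1, Galr2, Galr3, Vipr1 and Vipr2) lie between -0.65 and 0.39. Adcyap1r1, the PACAP receptor gene, is outside the 61 genes and not plotted, and it was higher (1.24 ± 0.13).

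P2Y receptors held the largest decreases. These receptors answer extracellular nucleotides such as ATP, ADP, UTP, UDP and UDP-sugars, except P2ry10, whose protein is known as a lysophosphatidylserine receptor of lymphocytes. Of 8 measured P2Y genes, 5 were lower in YFP-positive cells and 3 did not pass, with a median log2 fold change of -1.18. Outside this family, 2 of the other 53 receptor genes were lower and 6 higher. Over all genes tested, 9.11% were lower and 8.39% higher.

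P2ry6, a Gq-coupled receptor for UDP known in macrophages, had levels of 6.82, 6.74, 6.93 and 6.88 in YFP-positive cells, against 8.42, 8.53 and 8.25 in YFP-negative cells. Both groups were tight and far apart. It was 2.94-fold lower (-1.56 ± 0.08, limma adjusted p = 7e-05). P2ry10 had levels of 2.87, 2.34, 2.70 and 2.68 in YFP-positive cells, against 4.45, 4.59 and 5.18 in YFP-negative cells. It was 4.28-fold lower (-2.10 ± 0.20, limma adjusted p = 0.000542). With no detection call its low level in YFP-positive cells may be background, so the size of this fold is uncertain.

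The Gi-coupled members P2ry12, P2ry13 and P2ry14 were lower as well. P2ry12, the ADP receptor of platelets and microglia, had levels of 5.18, 5.25, 5.05 and 5.08 in YFP-positive cells, against 6.57, 6.14 and 6.21 in YFP-negative cells (-1.17 ± 0.11, limma adjusted p = 0.000633). P2ry13, another ADP receptor, had 5.31, 5.02, 5.45 and 5.80, against 6.47, 7.04 and 6.64 in YFP-negative cells (-1.32 ± 0.21, limma adjusted p = 0.00496). P2ry14, the UDP-glucose receptor, had 6.12, 5.98, 6.34 and 6.43, against 7.24, 8.0 and 7.0 in YFP-negative cells (-1.19 ± 0.24, limma adjusted p = 0.015). All 3 were at least 2-fold lower with no overlap. The calls of P2ry6, P2ry10 and P2ry12 held under every alternative that tested them. That of P2ry13 was lost only in the test against a 1.5-fold difference (adjusted p = 0.0803). That of P2ry14 was lost in the same test (adjusted p = 0.269), with the replicate number as a block (adjusted p = 0.0792), without YFP-positive array 2 (adjusted p = 0.0516) and without arrays 3 and 4 together (-1.36, adjusted p = 0.0685).

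The remaining P2Y genes, all Gq-coupled, did not pass. P2ry1, the ADP receptor through which purinergic nerves relax bowel muscle, is shown after its values were seen. It had 6.36, 6.51, 6.39 and 6.39 in YFP-positive and 6.39, 6.50 and 6.37 in YFP-negative cells (-0.01 ± 0.06, limma adjusted p = 0.95). P2ry2 (-0.10 ± 0.14) and P2ry4 (-0.09 ± 0.07) did not pass.

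Markers of several cell types were lower along with the P2Y genes. All 6 myeloid markers were lower in YFP-positive cells, with a mean level of 5.52 to 6.51 on YFP-positive arrays, against 9.41 to 9.61 on YFP-negative arrays. Of 5 lymphoid markers 4 were lower, with a mean of 4.68 to 4.97, against 6.55 to 7.43. All 6 fibroblast markers were lower as well, with a mean of 7.58 to 8.74, against 9.63 to 10.31. Of 3 markers of interstitial cells of Cajal 2 were lower and 1 higher. Of 3 erythroid markers 1 was lower, and their mean was 5.23 to 5.58 on YFP-positive arrays, against 5.90, 7.92 and 10.44 on YFP-negative arrays 1 to 3. On a log2 scale no marker is at 0, and the part of these cells in the P2Y differences was not tested.

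**Figure D4:**
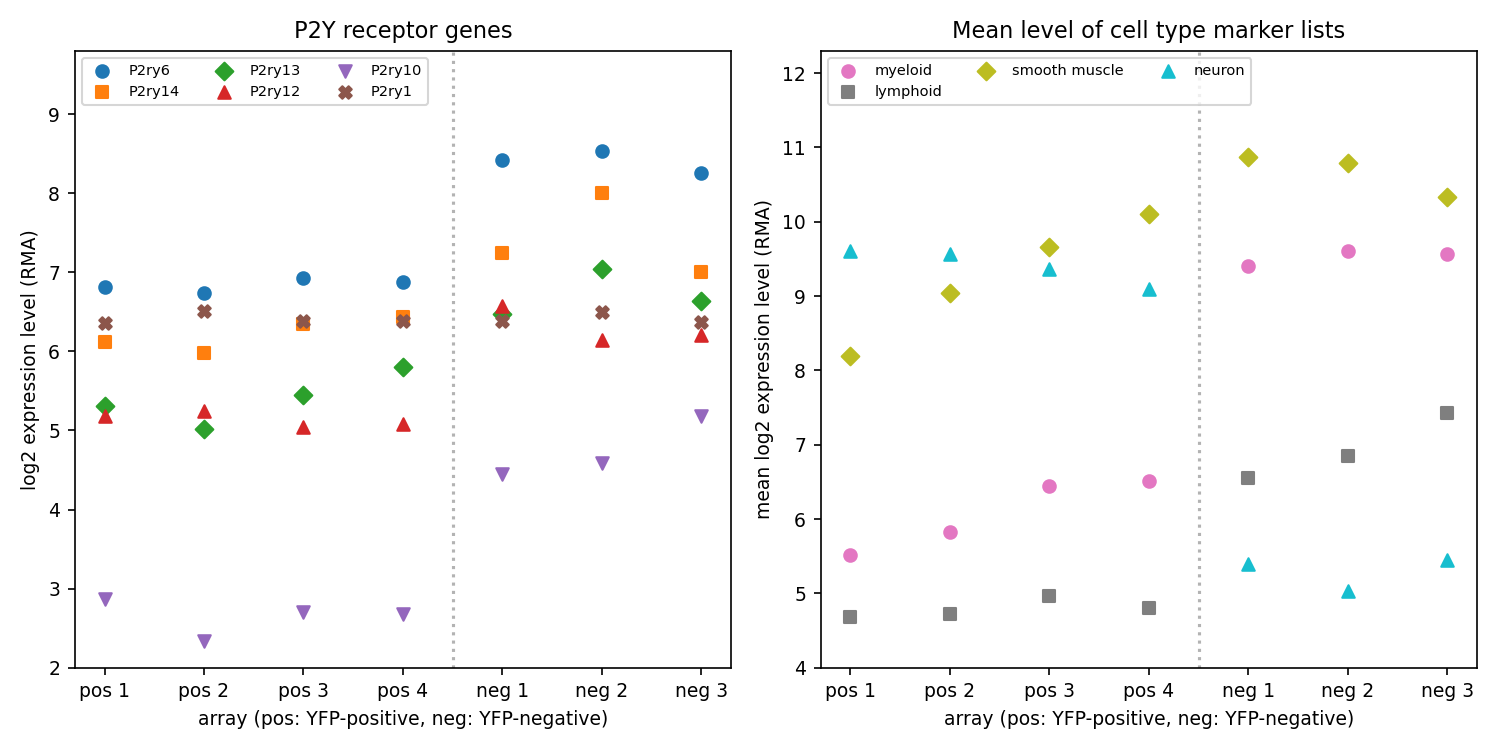
Left, log2 levels of 6 of 8 measured P2Y genes per array, and right, mean log2 levels of 4 cell type marker lists. P2ry2 and P2ry4, which did not pass, are not shown. YFP-positive arrays (pos) are left of the dotted line and YFP-negative arrays (neg) right of it. All P2Y genes shown except P2ry1 are higher on every YFP-negative array than on any YFP-positive array, as are the myeloid, lymphoid and smooth muscle lists.

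The genes P2ry12, P2ry13 and P2ry14 are also neighbours. In RefSeq (GRCm38.p6) they lie on chromosome 3 within a run of 4 protein-coding genes ordered by start, of which these 3 were measured. By start, the next gene on one side is Gpr171, a receptor gene of T cells that was lower too (-1.89 ± 0.17, limma adjusted p = 0.000394). After it comes Med12l (0.37 ± 0.11, limma adjusted p = 0.062). On the other side come Igsf10 (-0.96 ± 0.14, limma adjusted p = 0.00426) and then Gm5709 (0.10 ± 0.17, limma adjusted p = 0.763). Only starts were ordered, so a gene that starts on one side may extend over the others. P2ry1 is on the same chromosome, with 10 protein-coding genes between it and the nearest of the 3.

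The promoters of P2ry12 and P2ry13 are shown because these neighbours were both lower and each has 1 window in the table. Window, build and capitals are as for the promoters above.
P2ry12, chr3:59262936-59263235, minus strand: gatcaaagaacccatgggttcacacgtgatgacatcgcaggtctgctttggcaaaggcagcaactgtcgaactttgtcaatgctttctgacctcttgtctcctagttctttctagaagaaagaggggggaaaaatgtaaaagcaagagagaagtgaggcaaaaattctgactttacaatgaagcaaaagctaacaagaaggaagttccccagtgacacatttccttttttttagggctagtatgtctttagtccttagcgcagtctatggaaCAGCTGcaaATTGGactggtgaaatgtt
P2ry13, chr3:59210833-59211132, minus strand: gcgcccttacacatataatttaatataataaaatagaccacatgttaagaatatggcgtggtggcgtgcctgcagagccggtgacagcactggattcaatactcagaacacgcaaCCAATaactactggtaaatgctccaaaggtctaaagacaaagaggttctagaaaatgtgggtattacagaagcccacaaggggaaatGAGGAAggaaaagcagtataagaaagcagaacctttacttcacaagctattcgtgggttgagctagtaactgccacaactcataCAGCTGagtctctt
Both held a CAGCTG match after the start and a CCAAT match. In P2ry13 the CCAAT match lay 135 bases before the start, and in P2ry12 it lay after the start, on the opposite strand. CAGCTG was found in 16.3% and CCAAT in 37.4% of all windows. P2ry13 also held a GAGGAA, found in 28.3% of all windows. Neither window held a GC box or a TATAAA.

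Grouped by the G protein that each receptor is known to use, calls fell on both sides, in numbers too small to set the classes apart from the background of 8.39% of all genes higher and 9.11% lower. Of 16 Gq-coupled receptor genes 2 were higher (Htr2b and Tacr3) and 2 lower (Chrm3 and P2ry6). Of 37 Gi-coupled genes 3 were higher (Grm7, Gabbr1 and Sstr2) and 3 lower (P2ry12, P2ry13 and P2ry14). Of 7 Gs-coupled genes 1 was higher (Htr4) and 1 lower (Vipr2). P2ry10 was left out of these classes.

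Genes that act downstream of the receptors are set against the same background of 8.39% of all genes higher and 9.11% lower. Of 10 measured G-protein alpha subunit genes, 4 were higher in YFP-positive cells and 2 lower. Gnao1, the main alpha subunit of neurons, led with 9.41, 8.96, 8.75 and 8.81 in YFP-positive cells, against 7.42, 7.43 and 7.38 in YFP-negative cells (1.57 ± 0.16, limma adjusted p = 0.000708). Gnaz (0.76 ± 0.16), Gnai1 (0.64 ± 0.15) and Gnaq (0.62 ± 0.08) were higher, and Gna14 (-0.88 ± 0.19) and Gnai2 (-0.33 ± 0.07) lower. The calls of Gnao1 and Gnaq held under the 15 alternatives that tested for a difference of any size. Of these 15, Gna14 lost its call in 7, Gnai1 in 6, Gnai2 in 5 and Gnaz in 5. The higher genes numbered 2 after removal of YFP-positive array 1, or of array 2 of the YFP-negative cells. Without YFP-negative array 1 or 2 the lower genes numbered 0. The lower genes numbered 1 without YFP-positive array 1, 3 or 4.

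Among 24 measured effector genes 3 were higher and 3 lower, near that background. The phospholipase C genes, which act after Gq, split by member. Plcb1 (1.51 ± 0.14, limma adjusted p = 0.000492) and Plcb4 (1.02 ± 0.08, limma adjusted p = 0.00025) were higher, and Plcb2, known in blood cells, was lower (-1.84 ± 0.17, limma adjusted p = 0.0005). The cyclase gene Adcy7 (-1.44 ± 0.16) and the calcium release channel gene Itpr2 (-1.14 ± 0.21) were lower, and Adcy6 was slightly higher (0.35 ± 0.10, limma adjusted p = 0.0483). The Adcy6 call was lost when YFP-positive array 2 or 3 or any YFP-negative array was left out. Of 7 genes for receptor desensitisation, the kinase gene Grk3 was higher (1.13 ± 0.13, limma adjusted p = 0.00127) and the arrestin gene Arrb2 lower (-0.94 ± 0.16, limma adjusted p = 0.0068).

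The background of 8.39% of all genes higher and 9.11% lower applies to genes that encode, make or transport the ligands of these receptors. Of 27 such genes, 6 were higher in YFP-positive cells and 0 lower. Besides Gal, Vip and Tac1 these were Slc18a3, the vesicular acetylcholine transporter (3.34 ± 0.23), Slc18a2, the vesicular monoamine transporter (1.97 ± 0.25), and Chat, which makes acetylcholine (0.98 ± 0.14). Chat and Tac1 were chosen after their values were seen. At an unadjusted p under 0.05, Dbh (1.46 ± 0.42) and Pdyn (0.41 ± 0.12) had further positive differences and Sst (-1.91 ± 0.65) a negative one. Without YFP-negative array 3 the lower ligand genes numbered 1.

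Within the YFP-positive group, 4 of the 6 higher receptor genes (Htr2b, Tacr3, Gabbr1 and Htr4) had arrays 1 and 2 both above arrays 3 and 4, as did 49.5% of all higher genes. Of the 7 lower receptor genes 4 had arrays 3 and 4 both above arrays 1 and 2, as did 48.6% of all lower genes. Without arrays 3 and 4, a setting chosen after seeing the data, 5 receptor genes were higher and 5 lower.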

How the data were processed

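RNA of 4 YFP-positive and 3 YFP-negative sorted samples was measured on an Affymetrix mouse gene array. Per the labels' protocols, RNA went through Trizol and an amplification kit meant for little input, which yields biotinylated cDNA. The authors deposited log2 levels per probe set. The submitters' processing notes name Affymetrix Expression Console and RMA, a method of background correction, quantile scaling and probe summary that, like amplification, can make differences smaller. Their versions are not given in the sources.

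Of 35556 probe sets, 21789 had 1 gene symbol in the platform annotation, 1621 had several, and 12146 had none listed. Only the first were used. Each gene was represented by its probe set of highest mean, giving 19938 genes. Of the 61 receptor genes 1 had several. Symbols were checked against RefSeq (GRCm38.p6) by Entrez identifier, with 0 changed. Sample columns left unmatched numbered 0. Promoters came from RefSeq, which held a window for 49 receptor genes.

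The test was limma 3.58.1 (lmFit, eBayes) in R 4.3.3 on group alone, Benjamini-Hochberg adjusted over all genes, with calls at an adjusted p under 0.05. The fit was tested on simulated data. Tables and figures used Python 3.11.15, pandas 2.3.3, numpy 2.4.6 and matplotlib 3.10.9. The alternatives were trend and robust eBayes, 2 rescalings of the arrays, dropping the dimmest genes (the third with the lowest means), averaging a gene's probe sets, weighted arrays, limma's treat at 1.5-fold, a block for replicate number, each array left out, and, chosen after seeing the data, leaving out YFP-positive arrays 3 and 4.

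The receptor families, gene lists and alternatives were chosen with earlier results of these data known. Every receptor gene may be named. Levels on every array are given for those past the threshold and, in families with none, for the one with the highest mean. Of each pathway list, the rule names up to 4 genes past the threshold in each direction. Pathway genes named beyond it, and genes that lie next to P2Y genes, were chosen after values were seen.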

Additional observations from a re-analysis of the deposited data

Results flagged for a closer look

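In the group of 4 YFP-positive arrays, 13 of 61 receptor genes had a single array far from the other 3 by Dixon's gap ratio above its critical value. For normally distributed values chance flags about 1 gene in 20. The share flagged over all genes was not computed, so the count is not read as a trait of the receptors. The ratio also picks out small gaps when the other 3 arrays are nearly equal, as in most of these genes. Npy2r had the widest gap, with 5.68 on array 1 against 4.55 to 4.67 on the others. Array 1 was also high for Htr5a (4.44, against 4.17 on each other array) and Npy5r (3.66, against 3.45). Array 2 was high for Drd3 (5.18, against 4.88 to 4.89) and Npy6r (2.55, against 2.22 to 2.28). Array 2 was low for Vipr2 (4.91, against 5.37 to 5.38), Npy4r (4.0, against 4.30 to 4.32), Galr2 (5.33, against 5.43) and, by less than the rounding, Grm3 (4.06). Array 3 was high for Htr1d (3.86, against 3.74 to 3.75), Htr2c (3.72, against 3.58) and Drd4 (5.17, against 5.14). Array 4 was low for Grm4 (4.11, against 4.40 to 4.41). Of these 13 genes only Vipr2 passed the threshold between the groups, as lower, and its call was lost without array 2 (adjusted p = 0.0657).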

How the results depend on the processing

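The 13 calls kept their direction under all 16 alternatives. Trend and robust eBayes, treat, dropping the dimmest genes and averaging probe sets could not change a direction, as they leave these fold changes the same. Of 206 values 163 kept the call and 43 lost it. Htr2b, P2ry6, P2ry10 and P2ry12 kept it throughout, and Tacr3 and P2ry13 lost it only against a 1.5-fold difference, although P2ry10 and Tacr3 were not tested once the genes with the lowest mean were left out. The test against 1.5-fold called 1 receptor gene higher and 3 lower, and 469 and 558 of all genes. Leaving out 1 array gave 3 to 5 higher and 5 to 7 lower receptor genes, with 3 higher without YFP-positive array 2, YFP-negative array 1 or YFP-negative array 2, and 1202 to 1452 higher and 1166 to 1890 lower genes in all. The lowest of these counts, 1166, came without YFP-negative array 2. Centring the arrays or normalizing them again gave 8 higher receptor genes, with Sstr1 and Galr3 added, and array weights gave 7 higher and 9 lower. After each gene's group mean was subtracted, what remained had correlations of 0.008, -0.086 and 0.038 between same-numbered arrays. No array correlated best with its own number. With so few arrays this does not settle whether the numbers pair the samples, which the labels do not give. With the replicate number as a block, in which YFP-positive array 4 has no partner, 4 receptor genes were higher and 5 lower, and 1245 and 1264 of all genes. The causes of these changes were not tested. The lack of detection calls limits what can be said of dim genes.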

Other observations

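Of 14 measured genes for related receptors outside the 14 families, YFP-positive cells had 3 higher and 2 lower. Over all genes, 8.39% were higher and 9.11% lower. Cnr1, the cannabinoid receptor of neurons, had log2 levels of 7.30, 7.20, 7.22 and 7.25 in YFP-positive cells, against 4.88, 4.49 and 5.66 in YFP-negative cells (2.23 ± 0.25 on the log2 scale, SE, limma adjusted p = 0.00108). Its YFP-positive arrays were nearly equal and lay above every YFP-negative array. Adcyap1r1, the PACAP receptor, had 7.56, 7.76, 7.60 and 7.87, against 6.22, 6.71 and 6.45 in YFP-negative cells (1.24 ± 0.13, limma adjusted p = 0.000893). Both calls held under the 15 alternatives that tested for a difference of any size. Oprl1, the nociceptin receptor, was higher (0.50 ± 0.13, limma adjusted p = 0.0414). Cnr2, the cannabinoid receptor of immune cells (-0.92 ± 0.21, limma adjusted p = 0.0256), and the neurotensin receptor gene Ntsr1 (-0.60 ± 0.14, limma adjusted p = 0.0294) were lower. The calls of Oprl1, Cnr2 and Ntsr1 were each lost without any one of several single arrays, among them YFP-positive arrays 1, 2 and 3 and YFP-negative array 1. They were also lost with the replicate number as a block and without YFP-positive arrays 3 and 4 together. Over all these settings, the highest adjusted p was 0.114 for Oprl1, 0.177 for Cnr2 and 0.12 for Ntsr1.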
